A study of Homo sapiens with 6 samples.

Results

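The proteasome genes of NCI-H660 cells were examined after treatment with pyrvinium pamoate (PP). NCI-H660 is an established human cell line of neuroendocrine prostate cancer (NEPC), labelled as wild type, and PP is an anthelmintic cyanine dye that the study used as a drug against these cells. Cells received PP or, as the control, PBS, and 3 RNA-seq libraries of each treatment were labelled as collected on day 3. The PP concentration given to these cells was not found. The study's figure legends describe 3 independent samples. Its reporting summary gives, for in vitro work in general, at least 3 biologically independent experiments unless stated otherwise. Neither says of these libraries whether they were separate cultures, so p-values measure the spread between these libraries, which may be technical. Members were the rows of the expression table whose symbol begins with PSMA to PSMG followed by a digit, together with POMP. This gave 50 of 17177 genes. There were 18 rows of the core particle (PSMA and PSMB), 21 of the cap (PSMC and PSMD), 5 of the activators (PSME) and 6 others (PSMF1, PSMG1 to PSMG4 and POMP). A pair of rows, PSMC3IP and PSME3IP1, matched by their prefix and encode binding partners of PSMC3 and PSME3 rather than parts of the proteasome.

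The proteasome degrades proteins that carry ubiquitin chains. Its 20S core is a barrel of alpha and beta rings with the proteolytic sites inside, and the 19S cap, built from a base with ATPases and a lid, captures the substrate, removes ubiquitin and threads the chain into the core. The 11S complex and PA200 are alternative activators of the core, dedicated chaperones assemble the core and the base, and interferon induces subunits that replace the catalytic ones. The transcription factor NRF1, encoded by NFE2L1, raises transcription of the subunit genes together when proteasome activity falls.

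The promoters of the members with the lowest and the highest fold changes among those that passed the test are shown first, so that the genes can be compared at the level of sequence. Each is a RefSeq window on GRCh38.p14, from 250 bases before to 50 after a transcript start, written 5′ to 3′ on the gene's strand. Capitals mark the letters TGACNNNGC (the core of the antioxidant response element, which NRF1 and its relatives bind), CCAAT (the NF-Y box) and GAAANNGAA (a core like that of interferon response elements), on either strand. No marked matches overlap in these windows. The lowest were PSMB3, PSMA2 and PSME1, and the highest were PSMG1, PSME4 and PSMD5.
PSMB3, chr17:38752491-38752790, plus strand: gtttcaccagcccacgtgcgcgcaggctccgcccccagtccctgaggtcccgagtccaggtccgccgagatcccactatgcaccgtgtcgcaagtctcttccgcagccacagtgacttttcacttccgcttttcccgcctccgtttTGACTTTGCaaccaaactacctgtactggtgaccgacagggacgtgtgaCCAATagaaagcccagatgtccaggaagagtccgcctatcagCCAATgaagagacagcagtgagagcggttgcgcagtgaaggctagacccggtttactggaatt
PSMA2, chr7:42932125-42932424, minus strand: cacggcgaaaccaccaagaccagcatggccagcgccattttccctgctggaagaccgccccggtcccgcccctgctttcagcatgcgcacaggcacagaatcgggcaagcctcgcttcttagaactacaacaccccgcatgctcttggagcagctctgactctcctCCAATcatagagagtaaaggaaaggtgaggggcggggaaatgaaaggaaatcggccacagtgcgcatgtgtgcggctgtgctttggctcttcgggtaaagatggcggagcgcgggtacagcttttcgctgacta
PSME1, chr14:24135944-24136243, plus strand: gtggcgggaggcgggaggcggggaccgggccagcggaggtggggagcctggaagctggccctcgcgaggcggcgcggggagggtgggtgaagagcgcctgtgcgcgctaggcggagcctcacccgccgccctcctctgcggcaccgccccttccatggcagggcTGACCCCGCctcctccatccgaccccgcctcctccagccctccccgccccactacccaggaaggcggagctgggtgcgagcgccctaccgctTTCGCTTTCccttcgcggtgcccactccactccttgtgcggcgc
PSMG1, chr21:39183402-39183701, minus strand: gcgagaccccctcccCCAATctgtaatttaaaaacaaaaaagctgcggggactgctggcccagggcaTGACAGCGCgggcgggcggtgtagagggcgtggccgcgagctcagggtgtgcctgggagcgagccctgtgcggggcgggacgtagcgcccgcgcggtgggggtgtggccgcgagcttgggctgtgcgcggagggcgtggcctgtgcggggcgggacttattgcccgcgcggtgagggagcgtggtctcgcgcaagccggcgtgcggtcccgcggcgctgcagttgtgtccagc
PSME4, chr2:53970944-53971243, minus strand: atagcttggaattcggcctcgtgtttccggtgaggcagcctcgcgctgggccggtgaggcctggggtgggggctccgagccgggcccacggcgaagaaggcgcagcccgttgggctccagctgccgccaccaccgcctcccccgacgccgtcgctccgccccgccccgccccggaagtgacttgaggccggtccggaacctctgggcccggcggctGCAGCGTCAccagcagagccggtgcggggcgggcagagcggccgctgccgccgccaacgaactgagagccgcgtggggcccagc
PSMD5, chr9:120842873-120843172, minus strand: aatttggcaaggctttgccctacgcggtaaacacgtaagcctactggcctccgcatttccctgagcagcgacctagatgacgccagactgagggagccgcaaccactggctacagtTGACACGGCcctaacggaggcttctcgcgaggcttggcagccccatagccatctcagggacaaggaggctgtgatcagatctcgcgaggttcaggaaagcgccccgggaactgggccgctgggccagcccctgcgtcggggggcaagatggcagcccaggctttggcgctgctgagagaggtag

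Windows were found for 44 of the 50 members, 55 windows in all. TGACNNNGC was present in 15 of these windows (27.3%), against 13.3% of all 35116 windows of this length. CCAAT was found in 24 member windows (43.6%, against 34.6% of all windows) and GAAANNGAA in 9 (16.4%, against 8.11%). The palindromic letters GAANNTTC of the heat shock element were found in 2 member windows (3.64%, against 6.77%), both of PSMC3IP, and TGATGNAA, from the amino acid response element, in 1 (1.82%, against 3.62%), that of PSMF1. Both PSMC3IP windows overlap and hold the same GAANNTTC site, which is thus counted in each. Both PSME3IP1 windows likewise overlap and share their CCAAT sites. A match in these letters is a description and not a binding site. Of the 15 genes whose window held TGACNNNGC, 8 were lower with PP, 5 were higher and 2 did not pass the test, while of all 43 members with a window and a test 26 were lower and 8 were higher. Of the 21 tested genes with CCAAT, 14 were lower and 3 were higher, and of the 9 with GAAANNGAA, 7 were lower and 2 did not pass. Over all genes tested, 34.4% were lower and 38.1% were higher. The PSMB3 window held TGACNNNGC 104 bases before the start and that of PSME1 86 bases before it. The windows of PSMG1, PSME4 and PSMD5 held it 183, 34 and 134 bases before the start. The window of PSMA2 held none.

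Levels were the deposited FPKM values, that is, fragments per kilobase of gene, scaled by a library total. That total kept a constant ratio, to within 0.0194%, to the summed counts of the listed genes. The whole counts recovered from the FPKM values came to 29064253 to 32481171 per library. Neuroendocrine genes were expressed in every library, with CHGA at 42.4 to 44.1 FPKM in PBS and 23.5 to 25.5 FPKM with PP. Of the 6 neuroendocrine markers examined 4 were lower, 1 was higher and 1 did not pass (all genes tested: 34.4% lower, 38.1% higher), their sum was 204 to 216 FPKM in PBS and 166 to 182 FPKM with PP, and the part of this shift in the results on proteasome genes was not tested. The leukocyte genes PTPRC, CD3E and NKG7 reached at most 0.0415 FPKM. Summed over the 6 leukocyte markers examined the level was 2.78 to 3.45 FPKM in PBS and 2.17 to 3.05 FPKM with PP, and over the 5 fibroblast markers 4.08 to 4.49 and 4.49 to 4.91 FPKM. The libraries are bulk samples, in which fewer cells of one kind and less RNA per cell cannot be told apart.

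Of the 50 members, 49 had a mean FPKM of at least 1 and were tested with limma on log2(FPKM + 1). Most of the proteasome genes were lower with PP. At a Benjamini-Hochberg adjusted p under 0.05 over all 11726 genes tested, 31 members were lower, where 34.4% of all genes were lower, and 8 were higher, where 38.1% of all genes were higher. The median log2 fold change (PP minus PBS) was -0.24 over the members and 0.02 over all genes tested. In 33 members every PP library lay below every PBS library, which 35.5% of all genes did, and in 10 every PP library lay above, which 39.5% of all genes did. The changes were small. At the cutoff named in the study's methods for limma (P under 0.001 and a change of more than 1 log2 unit either way), 0 members were called in either direction, against 2.24% of all genes higher and 2.93% lower. Limma-voom on the recovered counts also called 0, although 39 of the 49 members had an unadjusted p under 0.05 by limma, as did 8717 of all 11726 genes tested, and 41 members by limma-voom. The member without a test was PSMB11, the catalytic subunit of the thymus, at 0 to 2 counts per library.

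**Figure D1:**
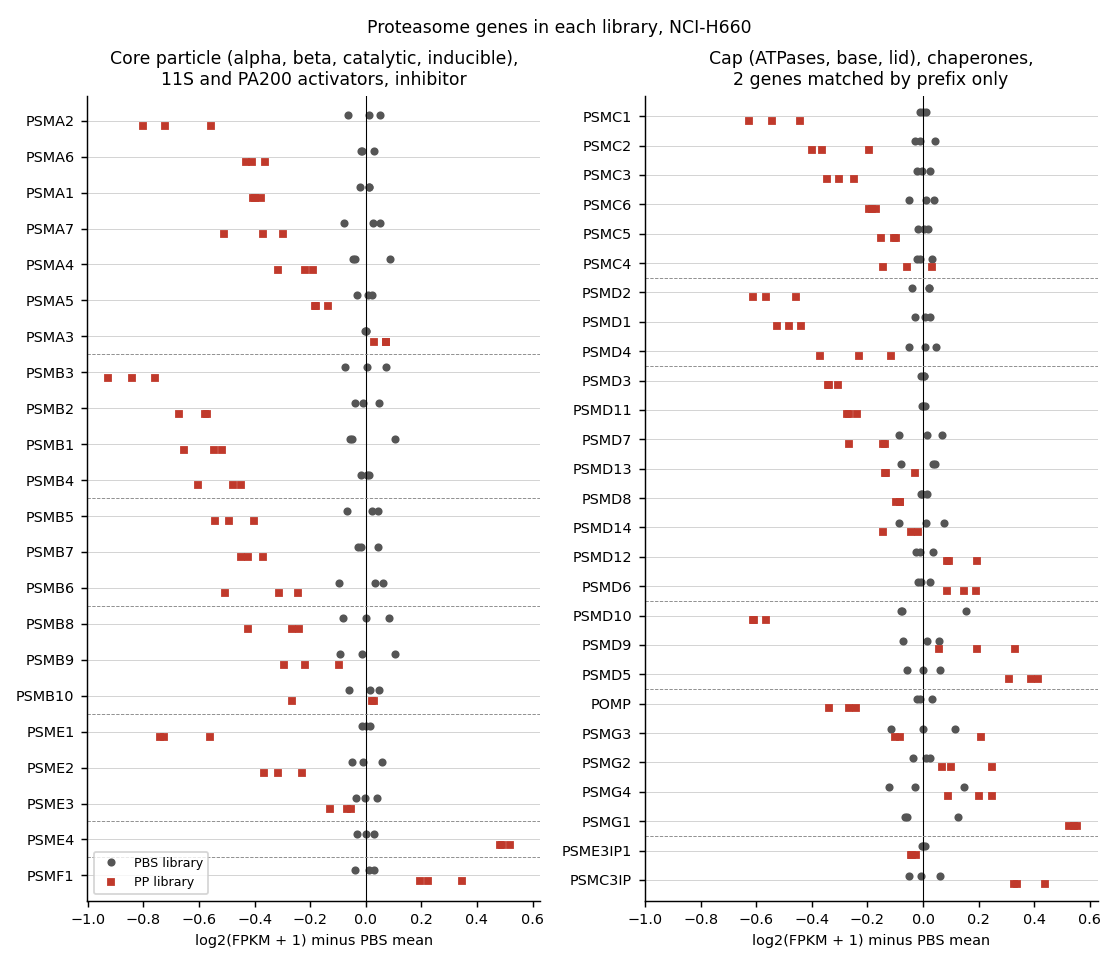
Each point is a library, drawn as its log2(FPKM + 1) minus the mean of the 3 PBS libraries for that gene (x axis, log2 units), with PBS libraries as circles and PP libraries as squares. Dashed lines separate the groups named in the panel titles, and the red squares of the alpha and beta rings lie left of the PBS circles for every gene except PSMA3.

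Most genes of the core particle were lower with PP, and PSMA3 and PSMB10 did not pass. Of its 17 genes tested, 15 were lower by limma, 0 were higher at the adjusted threshold or at an unadjusted p under 0.05, and the median log2 fold change was -0.39. Over all genes tested 34.4% were lower and 38.1% higher. Limma-voom also called 0 core genes higher and 15 lower. The summed FPKM of the 14 constitutive core subunits was 1482, 1525 and 1560 in the PBS libraries and 1167, 1140 and 1073 in the PP libraries, a mean that was 26% lower with PP. All PP libraries lay below all PBS libraries, and PP replicate 3 had the lowest sum.

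PSMB3, a structural subunit of the beta ring, had the lowest fold change of all members. It stood at 111, 117 and 123 FPKM in PBS and at 68.7, 64.8 and 61.0 FPKM with PP. Its log2 fold change was -0.84 ± 0.05 (SE, n = 3 per group, limma adjusted p = 1.88e-07). The groups did not overlap, and the PP mean was 44.6% below the PBS mean. RefSeq places the gene at chr17:38752741-38764225 (GRCh38.p14).

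The other structural beta subunits, PSMB2, PSMB1 and PSMB4, fell together with it. PSMB2 was at 74.5, 71.6 and 70.1 FPKM in PBS and 44.8, 48.2 and 48.0 FPKM with PP (log2 fold change -0.61 ± 0.04 SE, limma adjusted p = 4.24e-07). PSMB1 changed by -0.57 and PSMB4 by -0.51 on the same scale. When the trend with gene length and GC content was removed, PSMB2 (-0.72) and the cap gene PSMD10 (-0.68) lay below PSMB3 (-0.66). All 4 structural genes of the beta ring had lower fold changes than the catalytic subunits, although PSMB4 and the next gene, PSMB5 at -0.48, differed by less than their standard errors.

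The alpha ring, which forms the gate of the core, was more mixed. Of its 7 genes 6 were lower, where 34.4% of all genes tested were lower. PSMA2 was at 83.4, 87.9 and 90.3 FPKM in PBS and at 58.9, 49.6 and 52.4 FPKM with PP, with no overlap (log2 fold change -0.69 ± 0.06 SE, limma adjusted p = 2.35e-06). PSMA6, PSMA1 and PSMA7 lay between -0.40 and -0.39, PSMA4 was at -0.24 and PSMA5 at -0.17. PSMA7 was the most abundant member per length, at 258 ± 12.2 FPKM (SD, n = 3) in PBS and 196 ± 14.6 FPKM with PP.

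PSMA3 was the exception within the alpha ring. It stood at 135, 135 and 135 FPKM in PBS and at 142, 142 and 138 FPKM with PP. Every PP library lay above every PBS library, but the log2 fold change of 0.06 ± 0.03 (SE) did not pass the test (limma adjusted p = 0.0956). PSMA3 overlaps the antisense gene PSMA3-AS1, and whether the counting used strand is not stated, so reads of the pair may not be separated.

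The core carries 3 kinds of proteolytic site, each supplied by a constitutive subunit (PSMB5, PSMB6, PSMB7) that an inducible subunit (PSMB8, PSMB9, PSMB10) replaces in the immunoproteasome. All 3 constitutive genes fell. PSMB5, the chymotrypsin-like site and the target of bortezomib, was at 53.4, 57.7 and 56.8 FPKM in PBS and at 42.1, 39.5 and 38.1 FPKM with PP (log2 fold change -0.48 ± 0.05 SE, limma adjusted p = 6.75e-06). PSMB7, the trypsin-like site, was at 133, 134 and 140 FPKM in PBS and at 105, 101 and 99.0 FPKM with PP (-0.41 ± 0.04 SE). PSMB6, the caspase-like site, was at 120, 132 and 135 FPKM in PBS and at 109, 104 and 90.4 FPKM with PP (-0.35 ± 0.07 SE, limma adjusted p = 0.000681). None of the 3 genes had overlapping groups. Over all genes tested 34.4% were lower, and 35.5% had every PP library below every PBS library.

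The inducible subunits were also expressed in PBS. PSMB8 was at 55.1, 58.4 and 61.9 FPKM in PBS and 49.3, 48.4 and 43.3 FPKM with PP (log2 fold change -0.31 ± 0.06 SE, limma adjusted p = 0.000643). PSMB9 was at 43.6, 46.1 and 50.1 FPKM in PBS and 43.4, 39.8 and 37.7 FPKM with PP (-0.20 ± 0.06 SE, limma adjusted p = 0.0121). The highest PP library of PSMB9 lay just under its lowest PBS library, and the adjusted p was 0.0506 without PBS replicate 3. PSMB10 was at 14.4, 15.2 and 15.6 FPKM in PBS and 15.3, 15.3 and 12.3 FPKM with PP, and did not pass (-0.07 ± 0.08 SE, limma adjusted p = 0.417). Its groups overlapped, and only PP replicate 3 lay below the PBS libraries. PSMB8 overlaps the antisense gene PSMB8-AS1, with the same limit as for PSMA3.

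Within each pair, the inducible subunit made up a larger share of the pair's FPKM with PP. PSMB8 was 50.8, 50.3 and 52.1% of PSMB5 plus PSMB8 in PBS and 53.9, 55.1 and 53.2% with PP. PSMB9 was 26.5 ± 0.63% of its pair with PSMB6 in PBS and 28.6 ± 0.84% with PP (SD, n = 3 per group). PSMB10 was 9.98 ± 0.21% of its pair with PSMB7 in PBS and 12.3 ± 1.1% with PP (SD, n = 3 per group). The groups did not overlap for any of the 3 pairs, and a two-sided exact permutation test gave p = 0.1 for each (0.1 after Benjamini-Hochberg adjustment over the 3 pairs), the smallest value that 3 against 3 libraries can give.

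**Figure D2:**
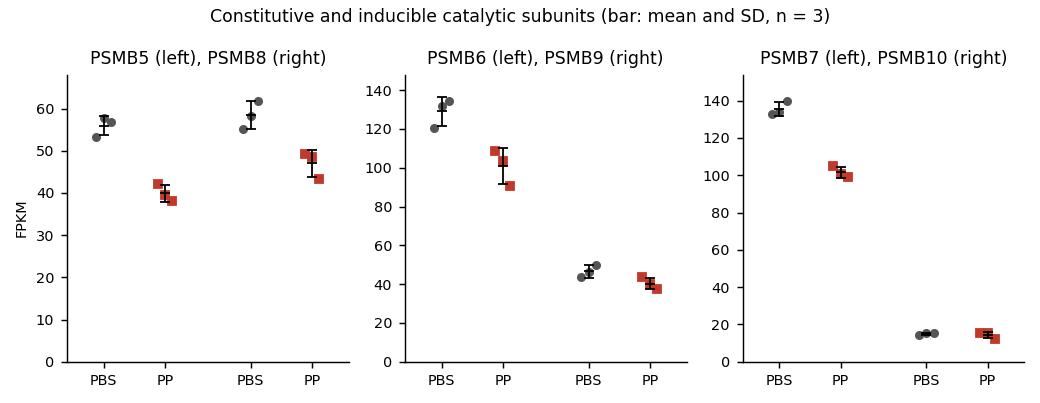
FPKM (y axis, starting at 0) of the constitutive and the inducible subunit of each catalytic site, with each PBS library as a circle, each PP library as a square, and the mean and SD of 3 libraries in black. PSMB5 and PSMB8 stand at similar levels, while PSMB9 and PSMB10 lie well under PSMB6 and PSMB7, and all PP squares of the constitutive subunits lie below their PBS circles.

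In the cap, 13 of 21 genes were lower and 4 were higher (3 without the prefix match PSMC3IP), with a median log2 fold change of -0.18, where 34.4% of all genes tested were lower and 38.1% higher. The summed FPKM of the 17 cap subunits with PSM names was 1109, 1119 and 1120 in PBS and 969, 945 and 937 with PP, 14.9% lower in the mean and without overlap. The 6 ATPases of the base, which unfold the substrate, were all negative, and 5 passed the test. PSMC1 had the lowest fold change, at 29.5, 29.1 and 29.3 FPKM in PBS and 21.3, 18.6 and 19.8 FPKM with PP (-0.54 ± 0.05 SE, limma adjusted p = 4.24e-06). PSMC2, PSMC3, PSMC6 and PSMC5 ranged from -0.32 to -0.12. PSMC4 did not pass (-0.06 ± 0.05 SE, limma adjusted p = 0.302), and its PP libraries at 38.4, 40.9 and 43.6 FPKM overlapped the PBS libraries at 41.9, 43.6 and 42.3 FPKM.

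The 3 PSMD subunits of the base (PSMD1, PSMD2 and PSMD4) were lower, while ADRM1, a base subunit outside the PSM names, did not pass, as given with the associated factors. PSMD2, the large scaffold that docks ubiquitin shuttles, was at 153, 159 and 159 FPKM in PBS and at 114, 106 and 102 FPKM with PP (-0.54 ± 0.04 SE, limma adjusted p = 1.3e-06). PSMD1, the other scaffold, was at 37.1, 38.6 and 38.1 FPKM in PBS and at 26.1, 27.7 and 26.9 FPKM with PP (-0.48 ± 0.04 SE, limma adjusted p = 1.69e-06). The ubiquitin receptor PSMD4 changed by -0.24. None of these 3 genes had overlapping groups. Over all genes tested 34.4% were lower, and 35.5% had every PP library below every PBS library.

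The lid, which holds the deubiquitinase PSMD14, gave counts nearer to those of all genes tested (34.4% lower, 38.1% higher). Of its 8 genes with PSMD names 4 were lower (PSMD3 at -0.33, PSMD11 at -0.26, PSMD7 at -0.18 and PSMD8 at -0.09), 1 was higher and 3 did not pass, and SEM1, a lid subunit under another name, was lower by more than any of them (-0.95). PSMD6 was the one that was higher, at 53.1, 51.5 and 51.8 FPKM in PBS and 57.8, 55.4 and 59.6 FPKM with PP (0.14 ± 0.04 SE, limma adjusted p = 0.00642). Its call was lost when the trend with gene length and GC content was removed (0.02, limma adjusted p = 0.491). PSMD14 itself was at 37.8, 35.2 and 39.5 FPKM in PBS and 36.9, 33.8 and 36.3 FPKM with PP, with overlapping groups (-0.07 ± 0.05 SE, limma adjusted p = 0.241), and it was called lower when that trend was removed (-0.20, limma adjusted p = 0.00424). The call of PSMD8 was not kept without PBS replicate 3 (-0.08, limma adjusted p = 0.0675), and its sign turned when the trend with length and GC was removed.

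**Figure D3:**
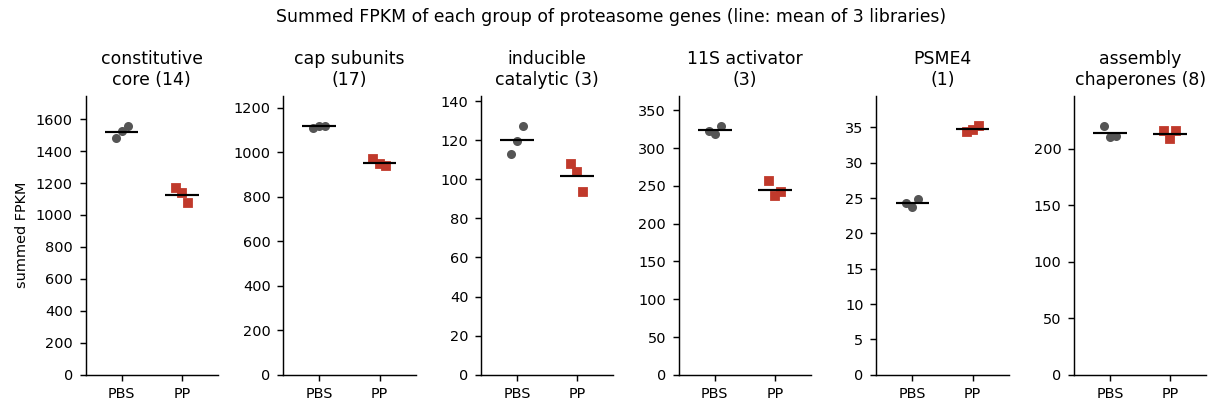
Summed FPKM (y axis, starting at 0, a separate scale in each panel) of the genes in each group, whose number stands in brackets. Circles are PBS libraries, squares are PP libraries and lines are means, and the sums of the core, the cap, the inducible subunits and the 11S genes are lower in every PP library, the level of PSME4 is higher, and the chaperones overlap.

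The chaperones with PSMD names that build the base bind different ATPases, and they moved in different directions. PAAF1, a further chaperone of the base, is given with the associated factors. PSMD10 (gankyrin), which binds PSMC4, was at 51.7, 43.9 and 43.8 FPKM in PBS and at 30.0, 30.0 and 31.0 FPKM with PP (log2 fold change -0.60 ± 0.06 SE, limma adjusted p = 8.47e-06). The PP libraries agreed closely and lay below all PBS libraries. PSMD5, which binds PSMC1 and PSMC2, was at 26.6, 27.8 and 25.6 FPKM in PBS and at 33.3, 35.2 and 35.8 FPKM with PP, without overlap (0.37 ± 0.05 SE, limma adjusted p = 3.59e-05). PSMD9, which binds PSMC3 and PSMC6, was at 11.2, 12.3 and 11.9 FPKM in PBS and at 15.1, 13.6 and 12.3 FPKM with PP (0.19 ± 0.07 SE, limma adjusted p = 0.0264). The lowest PP library of PSMD9 lay just above its highest PBS library, and the call was lost without PBS replicate 1, PP replicate 1 or PP replicate 2 (limma adjusted p = 0.0881, 0.0966 and 0.0626), and also without the filter (0.0699).

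The chaperones of the core work as pairs, PSMG1 with PSMG2 and PSMG3 with PSMG4, which place the alpha ring, and POMP, which places the beta subunits. PSMG1 had the highest fold change of all members. It was at 8.36, 7.20 and 7.24 FPKM in PBS and at 11.5, 11.6 and 11.4 FPKM with PP (0.54 ± 0.06 SE, limma adjusted p = 1.58e-05), from 428 to 755 counts per library. Its partner PSMG2 rose less, from 58.6, 58.0 and 56.0 FPKM to 61.7, 60.4 and 68.5 FPKM (0.14 ± 0.05 SE, limma adjusted p = 0.0246). Neither gene's groups overlapped, where 39.5% of all genes tested had every PP library above every PBS library. The call of PSMG2 was lost without PBS replicate 2, PBS replicate 3 or PP replicate 3 (limma adjusted p = 0.0505, 0.0823 and 0.0704), and also without the filter, the eBayes trend or the length and GC trend (0.0575, 0.0508 and 0.0803).

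The second pair did not pass the test, and POMP was lower. PSMG3 was at 34.6, 31.9 and 37.5 FPKM in PBS and 40.1, 32.6 and 32.2 FPKM with PP, and its groups overlapped (0.01 ± 0.08 SE, limma adjusted p = 0.935). PSMG4, low at 2.10, 2.31 and 2.74 FPKM in PBS and 3.004, 2.88 and 2.59 FPKM with PP, also overlapped (0.18 ± 0.08 SE, limma adjusted p = 0.0704), although limma-voom on recovered counts called it higher (0.25, adjusted p = 0.0275), as did limma without PBS replicate 3 (0.25, adjusted p = 0.018) and without the length and GC trend (0.24, adjusted p = 0.0162). POMP was at 27.3, 26.4 and 26.3 FPKM in PBS and 20.9, 22.4 and 22.0 FPKM with PP (-0.28 ± 0.04 SE, limma adjusted p = 0.000146). Summed over the 8 chaperones of core and base among the members, the FPKM was 214 ± 5.74 in PBS and 213 ± 4.06 with PP (SD, n = 3 per group), and the groups overlapped.

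Of the 3 activator genes of the 11S kind 2 were lower and 1 did not pass, and PSME4, alone in its kind, was higher. Over all genes tested 34.4% were lower and 38.1% higher. A difference between the kinds was not tested. PSME1 and PSME2 form the interferon-inducible 11S ring, and both were lower. PSME1 was at 126, 128 and 127 FPKM in PBS and at 85.8, 75.7 and 76.4 FPKM with PP (-0.68 ± 0.05 SE, limma adjusted p = 5.6e-07). PSME2 was at 150, 146 and 157 FPKM in PBS and at 129, 117 and 121 FPKM with PP (-0.30 ± 0.04 SE, limma adjusted p = 0.000109). The groups overlapped for neither gene, where 35.5% of all genes tested had every PP library below every PBS library.

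PSME3, the nuclear 11S protein, did not pass the test. It was at 47.4, 44.9 and 45.9 FPKM in PBS and at 42.0, 43.9 and 44.3 FPKM with PP (-0.08 ± 0.04 SE, limma adjusted p = 0.0718). Its PP libraries still lay below all PBS libraries, and it passed after median-of-ratios scaling (-0.10, limma adjusted p = 0.0439) and after removal of the length and GC trend (-0.11, limma adjusted p = 0.0164).

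PSME4 (PA200), a large activator known for nuclear proteasomes and the degradation of acetylated histones, rose instead. It was at 24.3, 23.8 and 24.8 FPKM in PBS and at 34.4, 34.6 and 35.3 FPKM with PP, 42.9% higher in the mean (0.50 ± 0.04 SE, limma adjusted p = 9.37e-07). PSMF1, the inhibitor of the core, was also higher, at 18.4, 18.2 and 17.5 FPKM in PBS and 21.2, 23.2 and 20.8 FPKM with PP (0.25 ± 0.05 SE, limma adjusted p = 0.000916). The groups of both genes were apart, where 39.5% of all genes tested had every PP library above every PBS library.

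Of the prefix matches, PSMC3IP, a recombination factor, was higher at 20.4, 19.4 and 18.8 FPKM in PBS and 24.7, 26.8 and 24.9 FPKM with PP (0.37 ± 0.05 SE, limma adjusted p = 5.42e-05). PSME3IP1 was at 16.2 to 16.4 FPKM in PBS and 15.8 to 16.0 FPKM with PP (-0.04 ± 0.04 SE, limma adjusted p = 0.434). Without both rows, 31 proteasome genes were lower and 7 were higher. Among the 31 constitutive subunits of core and cap with PSM names, 25 were lower and PSMD6 alone was higher. Among the 16 other proteasome genes tested (inducible subunits, activators, inhibitor and chaperones), 6 were lower and 6 were higher, shares close to those of all genes tested (34.4% and 38.1%).

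Members also differed by their level. Across the 47 proteasome genes tested, the Spearman correlation between the log2 fold change and the mean FPKM in PBS was -0.60, against -0.14 across all 11726 genes tested. Within the 31 constitutive subunits it was -0.36. With the gene length implied by the FPKM the correlation was 0.35 across the 47 genes and 0.06 across the 11631 genes with a length. With the GC content of the transcript it was -0.15 across the 47 genes and -0.28 across the 11631 genes. Genes are not independent replicates, the points share the same 6 libraries, and the part of level, length or GC content in the fall was not tested. RefSeq names 52 pseudogenes after 21 of the members, among them 13 of PSMC1, 6 of PSME2, 3 each of PSMA2 and PSMD10 and 2 of PSMB3. How reads shared with such copies were counted is not stated, so the values of these genes are less certain.

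**Figure D4:**
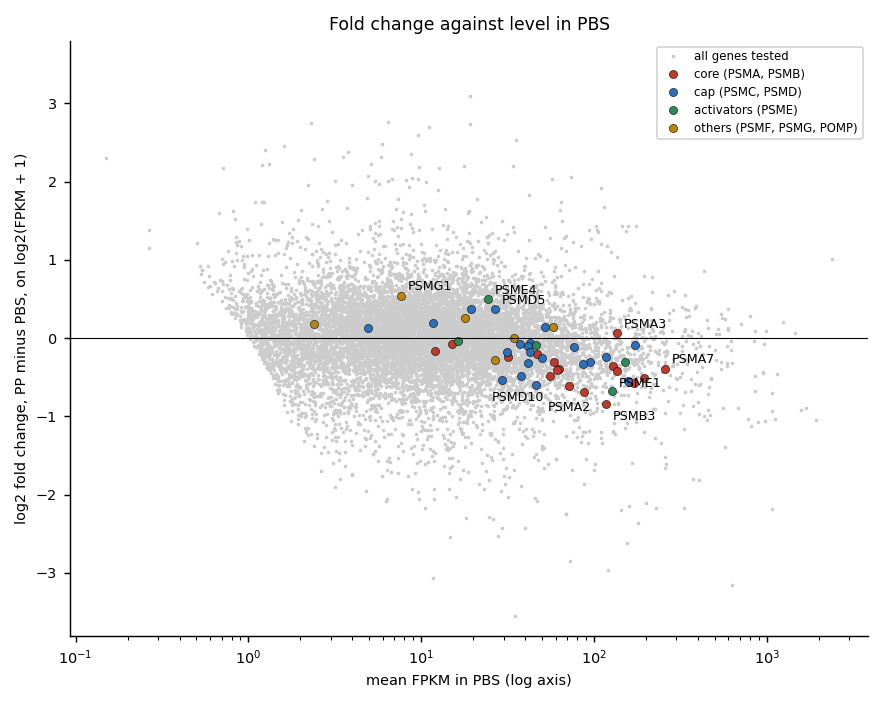
Log2 fold change of PP against PBS on the log2(FPKM + 1) scale (y axis) against the mean FPKM of the 3 PBS libraries (x axis, log scale) for all 11726 genes tested in grey and for the 49 members in colour by class. The members with the highest levels lie mostly under the zero line, and PSMG1, PSME4 and PSMD5, at lower levels, lie above it.

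The genes that act on the proteasome from outside the PSM families were taken from lists. Among 8 regulators of subunit transcription 6 were higher, 1 was lower and 1 did not pass, where 38.1% of all genes tested were higher and 34.4% lower, and their median log2 fold change was 0.40. NFE2L1 was at 58.5, 60.4 and 60.3 FPKM in PBS and at 96.7, 97.9 and 93.6 FPKM with PP (0.68 ± 0.03 SE, limma adjusted p = 4.94e-08). NFE2L2, which encodes NRF2, rose from 27.0, 24.4 and 25.2 FPKM to 63.2, 67.4 and 67.9 FPKM (1.34 ± 0.05 SE, limma adjusted p = 3.8e-09). The related NFE2L3 fell from 12.1, 9.75 and 10.1 FPKM to 5.62, 5.07 and 4.70 FPKM (-0.92 ± 0.08 SE, limma adjusted p = 3.53e-06). DDI2, the protease that activates NRF1, was higher by 0.24 and NGLY1, which removes its glycans, by 0.32. Of these regulator mRNAs, 6 of 8 were thus higher in the libraries in which most subunit mRNAs were lower. Protein levels and processing of NRF1 were not measured in these data.

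Of 4 genes for ubiquitin and its activating enzymes, 2 were lower, where 34.4% of all genes tested were lower, and 2 did not pass (RPS27A at -0.04 and UBA6 at 0.01). RPS27A was called lower without PP replicate 1 (-0.10, limma adjusted p = 0.0471), and UBA6 without the length and GC trend (-0.13, limma adjusted p = 0.0198). UBB, a polyubiquitin gene, was at 782, 779 and 770 FPKM in PBS and at 374, 394 and 368 FPKM with PP (-1.03 ± 0.03 SE, limma adjusted p = 1.61e-09). The activating enzyme UBA1 changed by -0.43. The groups overlapped for neither UBB nor UBA1, where 35.5% of all genes tested had every PP library below every PBS library.

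Of 12 factors associated with the proteasome, 8 were higher, 2 were lower and 2 did not pass, where 38.1% of all genes tested were higher and 34.4% lower. SEM1, a small lid subunit outside the PSM names, was at 87.4, 87.3 and 89.9 FPKM in PBS and at 45.8, 44.6 and 45.5 FPKM with PP (-0.95 ± 0.03 SE, limma adjusted p = 3.77e-09), a lower fold change than that of any member. ADRM1, the ubiquitin receptor of the base, did not pass (0.08 ± 0.04 SE, limma adjusted p = 0.104), but was called higher without PP replicate 3 (0.11, limma adjusted p = 0.0162) and without the length and GC trend (0.23, limma adjusted p = 8.6e-05). Higher were AKIRIN2, which brings proteasomes into the nucleus (0.70), PITHD1 (0.58), ZFAND5, which stimulates the proteasome (0.56), the cap deubiquitinase UCHL5 (0.49), the scaffold ECPAS (0.49), ZFAND2A (0.45), TXNL1 (0.29) and PAAF1, a further chaperone of the base (0.23). The ubiquitin ligase UBE3C was lower (-0.13), a call lost under the replicate block (limma adjusted p = 0.0653) and without PBS replicate 2, PBS replicate 3 or PP replicate 2 (0.0833, 0.121 and 0.132).

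**Figure D5:**
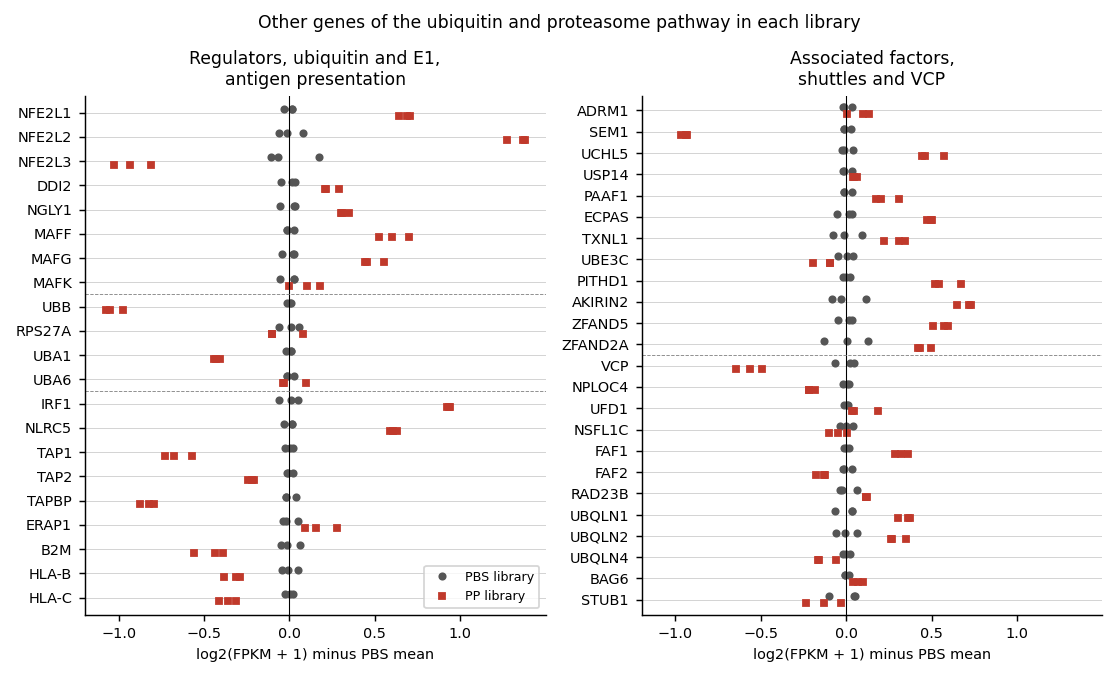
As in the plot of members by library, log2(FPKM + 1) of each library minus the PBS mean (x axis, log2 units) for regulators of subunit genes, ubiquitin and its activating enzymes, antigen presentation genes, associated factors, and shuttles with VCP. NFE2L1, NFE2L2 and most associated factors lie to the right of the PBS circles, and UBB, SEM1 and VCP to the left.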

How the data were processed

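RNA from the PP and PBS cultures of NCI-H660 was sequenced in paired-end reads from stranded mRNA libraries, and the authors deposited FPKM values for 17177 gene symbols in 6 libraries. The submitters' processing notes name fastp, HISAT2, HTSeq and GRCh38, whereas the study's methods name hg19, Bowtie and RSEM, with FPKM from Cufflinks and read counts from HTSeq, and which route gave the deposited table was not settled. The labels and the figure legends give 3 libraries a treatment, the methods 2, and all 6 were used. Positions and promoters are from RefSeq on GRCh38.p14.

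FPKM values fitted whole multiples of a step in all 17177 genes, at a tolerance of 0.01 count, and the smallest fitting counts were taken. In the simulated data described below, 98.33% of genes with a mean count of 10 or more were recovered exactly. The recovered total there was 98.98% of the true total. Compared by their counts, libraries of like treatment had a chi-square of 3.36 to 6.91 per degree of freedom, so no library was a duplicate. The 11726 genes averaging 1 FPKM or more were fitted on log2(FPKM + 1) with limma 3.58.1 in R 4.3.3 (lmFit, eBayes with a trend), with Benjamini-Hochberg adjustment over all of them. Fold changes on this scale understate changes of low genes. Figures and recovery used Python 3.11.15, numpy 2.4.6, pandas 2.3.3, scipy 1.17.1 and matplotlib 3.10.9. The steps were tested on simulated data. There, 55.6% of the genes changed by 0.3 log2 units were recovered, at a median fitted change of 0.252. Of those changed by 0.6 log2 units 99% were recovered, at a median of 0.513. Of 11524 unchanged genes 11 were called. In the simulation 99 and 100 genes were changed at these sizes, and the same spread was set for every gene. In the data 38.1% of all genes tested were higher and 34.4% lower, so the adjusted threshold differs. The shares recovered and called in the simulation therefore do not carry over to the data. Values in every library are given for the 5 members at each end of the fold change, the catalytic pairs, activators, inhibitor and chaperones, and for other genes where a result turns on them. Members, lists and motifs were chosen with earlier results of these data known. Some listed genes are not reported here.

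Alternatives varied the pseudocount (0.1), the filter (5 or none), scaling, the eBayes trend, the replicate block, the prefix matches and the libraries, and used limma-voom on recovered counts. Removal of the length and GC trend (loess, span 0.5) was chosen after seeing the data.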

Additional observations from a re-analysis of the deposited data

How the results depend on the processing

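Counts of members lower (30 to 33, against 31) and higher (6 to 9, against 8) stayed within 1.5 times of their values in every alternative run, as did those of the core and the cap, and 0 members passed the fold cutoff in any of them. The median of the cap, -0.18, was -0.20 after median-of-ratios scaling and -0.20 without the length and GC trend, and ranged from -0.18 to -0.14 when each library was left out. The median of the activators, -0.08, was -0.19 without the prefix match. Without the length and GC trend, some log2 fold changes moved by over 1.5 times although the call was kept. Smaller in size were those of PSME2 (-0.15), PSMB6 (-0.18), PSMA7 (-0.24), PSMD4 (-0.15) and PSMD5 (0.21). Those of PSMA5 (-0.35), PSMC6 (-0.36), PSMA4 (-0.39) and PSMC2 (-0.49) were larger in size. The cause was not tested.

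Signs turned for some genes. Without the length and GC trend, log2 fold changes were 0.124 for PSMB10, -0.0588 for PSMD12, 0.00286 for PSMD8, -0.129 for USP14, -0.128 for UBA6, -0.0173 for RAD23B and 0.0394 for STUB1, of which USP14 and UBA6 passed as lower (limma adjusted p = 0.0133 and 0.0198). After median-of-ratios scaling PSMG3 was at -0.00613 and UBA6 at -0.00236. With each library left out in turn, PSMB10 ranged from -0.121 to 0.0258, PSMG3 from -0.0922 to 0.0651 and UBA6 from -0.0323 to 0.0338. The sign turned without PP replicate 3 for PSMB10 and UBA6, and without PBS replicate 2 or PP replicate 1 for PSMG3. The cause was not tested. PSMD13 passed without PBS replicate 3 (-0.14, limma adjusted p = 0.0283) or PP replicate 1 (-0.13, limma adjusted p = 0.0287) and after median-of-ratios scaling (0.0496), PSMD12 passed as higher without the eBayes trend (0.0411), where PSMD8 lost its call (0.07), and without the length and GC trend PSME3IP1 passed as lower (0.0487) and MAFK as higher (0.00617).

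Deviations of libraries with the same replicate number correlated at -0.21, -0.01 and -0.13, so the numbers were not taken as pairs. With the replicate block, 30 members were lower and 8 were higher, and 1 member, PSMD8, lost its call (limma adjusted p = 0.0685). Of the other named genes, UBE3C and ERAP1 lost theirs under the block and STUB1 passed (-0.13, limma adjusted p = 0.0313).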

Other observations

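Of 12 shuttle and VCP genes, which carry substrates to the proteasome, 4 were lower, 4 were higher and 4 did not pass, shares near those of all genes tested (34.4% lower, 38.1% higher), with a median log2 fold change of 0.01. VCP, the ATPase that extracts ubiquitinated proteins from membranes and complexes, was at 91.9, 97.6 and 99.1 FPKM in PBS and at 68.0, 64.7 and 61.2 FPKM with PP (-0.57 ± 0.05 SE, limma adjusted p = 1.65e-06), without overlap. Its cofactor NPLOC4 changed by -0.21, while UFD1, the partner of NPLOC4, did not pass (0.09 ± 0.05 SE, limma adjusted p = 0.121). The shuttles UBQLN1 (0.35) and UBQLN2 (0.30) were higher. Some calls in this list changed. UBQLN4, lower at -0.13, lost its call without the length and GC trend, PBS replicate 2 or PP replicate 1 (limma adjusted p = 0.301, 0.0607 and 0.0508), and RAD23B, higher at 0.12, lost its call without that trend, PBS replicate 2 or PBS replicate 3 (0.642, 0.0674 and 0.0562). BAG6 was called higher by limma-voom, without the filter and without the trend (adjusted p = 0.0417, 0.0483 and 0.000355), and NSFL1C lower without the trend (0.0363). STUB1 was called lower after median-of-ratios scaling, without PBS replicate 3 and without PP replicate 1 (limma adjusted p = 0.0468, 0.0226 and 0.0162).

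Antigen presentation uses peptides made by the proteasome. Of 9 genes of this pathway and of its interferon control, 6 were lower and 3 were higher, where 34.4% and 38.1% of all genes tested were, with a median log2 fold change of -0.33. The transporter gene TAP1, a neighbour of PSMB8 and PSMB9, was at 33.4, 32.7 and 33.7 FPKM in PBS and at 22.1, 20.4 and 19.6 FPKM with PP (-0.66 ± 0.05 SE, limma adjusted p = 6.45e-07). TAPBP changed by -0.83 and B2M by -0.46. IRF1, a transcription factor known to act on the PSMB9 and TAP1 promoters, rose from 20.3, 22.0 and 21.3 FPKM to 41.4, 41.6 and 41.1 FPKM (0.93 ± 0.04 SE, limma adjusted p = 1.81e-08), and NLRC5 rose by 0.61. The third that was higher, ERAP1 (0.17, limma adjusted p = 0.0357), lost its call without the filter, under the replicate block, without the length and GC trend, and without PBS replicate 2, PBS replicate 3, PP replicate 1 or PP replicate 3 (limma adjusted p = 0.067, 0.0565, 0.298, 0.0877, 0.0995, 0.0582 and 0.128).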
